A study of Homo sapiens with 4 samples.

Results

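Translation factors are the proteins that place the ribosome on an mRNA and move it along the coding sequence. The 54 genes described here code for the initiation factors (EIF genes) and elongation factors (EEF genes). The eIF2 kinases, the eIF4E-binding proteins and the eEF2 kinase are included. The members were taken by gene symbol out of 26364 listed genes, in a choice made with earlier results of these data known. RNA-seq was carried out in BE(2)C cells, a human neuroblastoma cell line in which the MYCN gene is amplified. Control cells (Ctrl, 2 samples) received a non-targeting siRNA and knockdown cells (MYCN KD, 2 samples) received siRNA against MYCN, with Lipofectamine 2000 in both groups. The sample labels give 80 nM siRNA, an incubation of 6 h and RNA extraction on the following day, while the study's methods state a lower final siRNA concentration. The study's methods name a single siRNA against MYCN, so effects of that siRNA on other transcripts and effects of losing MYCN cannot be told apart. The study's methods call the RNA-seq samples of a group biological replicates without saying that they came from separate cultures, and the p-values measure the spread between these samples only.

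During initiation, eIF2 brings the initiator tRNA to the small ribosomal subunit, eIF3 and eIF1 hold the complex open for scanning, and the cap-binding factor eIF4E, the scaffold eIF4G and the helicase eIF4A bring in the mRNA. eIF5 and eIF5B then complete start codon selection and subunit joining, after which eEF1A delivers each aminoacyl-tRNA and eEF2 moves the ribosome by a codon. Proteins of the MYC family bind the E-box sequence CACGTG and are known as activators of genes for ribosomes and protein synthesis, EIF4E being a classical example.

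The deposited values were RPKM, that is read counts scaled to gene length and to the reads of the library, and rested on 29055819 to 34142988 reads per sample as recovered from the values themselves. MYCN itself had 1068 and 1073 RPKM in Ctrl against 720.2 and 718 RPKM in MYCN KD, so that its transcript was at 67.2% of the control level (log2 difference -0.57, SE 0.029, adjusted p = 0.00361). After quantile normalization the log2 difference of MYCN was -0.38. Differences are given throughout as MYCN KD minus Ctrl on the scale of log2(RPKM + 1), which understates the change of genes with low RPKM, and adjusted p-values are from limma over the 11411 genes whose mean reached 1 RPKM. How replicate 1 departed from the mean of its group in Ctrl mirrored how it departed in MYCN KD, with a correlation of -0.9845 across these genes, which are not independent replicates. The replicate spread, and every p-value built on it, therefore holds less independent information than 2 unrelated pairs would. All 9 sympathoadrenal markers of neuroblastoma examined were above the level filter, for instance HAND2 at 209 and 219.5 RPKM in Ctrl against 324 and 309 RPKM in MYCN KD. Among leukocyte markers, PTPRC, CD3E and LYZ had at most 0.0413 RPKM in any sample, while CD14 passed the level filter with 1.74 and 1.51 RPKM in Ctrl against 1.52 and 1.75 RPKM in MYCN KD and overlapped between the groups. The endothelial markers summed to at most 0.638 RPKM. The summed levels of the Schwann cell markers were 5.30 and 4.86 RPKM in Ctrl against 8.91 and 9.69 RPKM in MYCN KD, and those of the fibroblast markers were 23.0 and 25.1 RPKM in Ctrl against 31.1 and 28.5 RPKM in MYCN KD. Both Schwann markers tested and 3 of 4 fibroblast markers tested passed the threshold as higher, and their part in the results below was not tested.

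Most of the translation factor genes were lower after MYCN knockdown. Of the 52 members that passed the level filter, 33 were down-regulated (63.5%), 5 were upregulated (9.62%) and 14 did not pass the threshold, while 22.8% of all tested genes were lower and 25.3% were higher. In both MYCN KD samples 40 of the 54 members lay below both Ctrl samples, 6 lay above both and 8 overlapped. Among all tested genes the groups were separated downwards in 35.8% and upwards in 40.4%. The median log2 difference of the tested members was -0.34, with a range from -1.07 to 0.41, beside a median of 0.03 and quartiles of -0.23 and 0.29 over all tested genes. Their summed level was 8793 and 8668 RPKM in Ctrl against 6992 and 7091 RPKM in MYCN KD. As a share of the summed RPKM of all listed genes this was 2.02% and 2.03% in Ctrl against 1.71% and 1.70% in MYCN KD. In bulk RNA, fewer cells with a transcript and less of it per cell cannot be told apart.

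**Figure D1:**
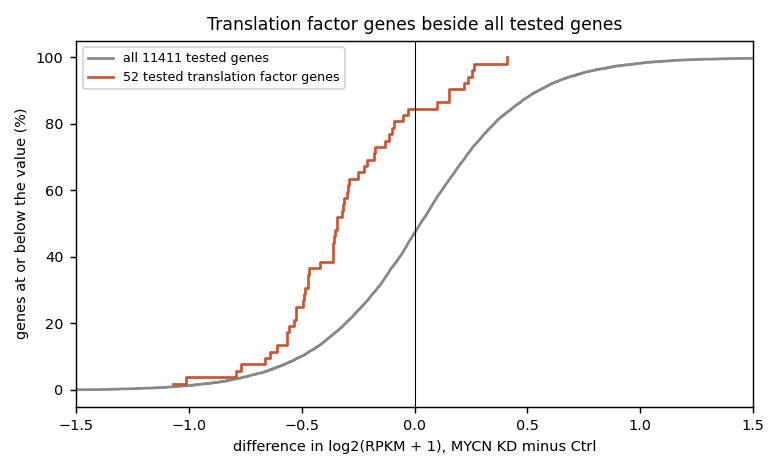
Cumulative share of genes (vertical axis, percent) by the difference in log2(RPKM + 1) between MYCN KD and Ctrl (horizontal axis), for the 52 tested translation factor genes and all 11411 tested genes. The curve of the translation factor genes lies to the left, with a median of -0.34 beside 0.03.

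Abundant members passed the threshold more often than scarce ones in this list, a count that was not tested. Of 19 members with a mean of at least 100 RPKM, 16 were lower and 1, EIF1, was higher. Of 11 members with a mean under 20 RPKM, 3 were lower and 2 were higher. The median log2 difference was nearly equal in the 2 classes, at -0.34 and -0.34. The reads behind a tested member ranged from 296 to 183017 per sample, so that the precision differed between the classes. Another listed gene shares exon bases with 20 of the tested members, and reads there could be counted for either gene or for neither. Of these 20, 15 were lower and none was higher, and of the other 32, 18 were lower and 5 were higher. Whether the library kept strand is not given in the sources used here.

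For EIF4A1 and EIF3C no change could be measured. EIF4A1, the main eIF4A helicase gene of many cells, was listed at 0 in all 4 samples. Its position on GRCh37 (chromosome 17, 7476142 to 7482324) overlaps on the same strand that of the readthrough gene SENP3-EIF4A1 (7466604 to 7482033), which had no more than 0.0145 RPKM in any sample. EIF3C, an eIF3 subunit gene with the near-identical copy EIF3CL, had 1 read in Ctrl replicate 1 and none in the other samples, and EIF3CL had 1 read in Ctrl replicate 2. Since cells depend on these factors, a value of 0 says only how the gene is listed. The cause was not tested.

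**Figure D2:**
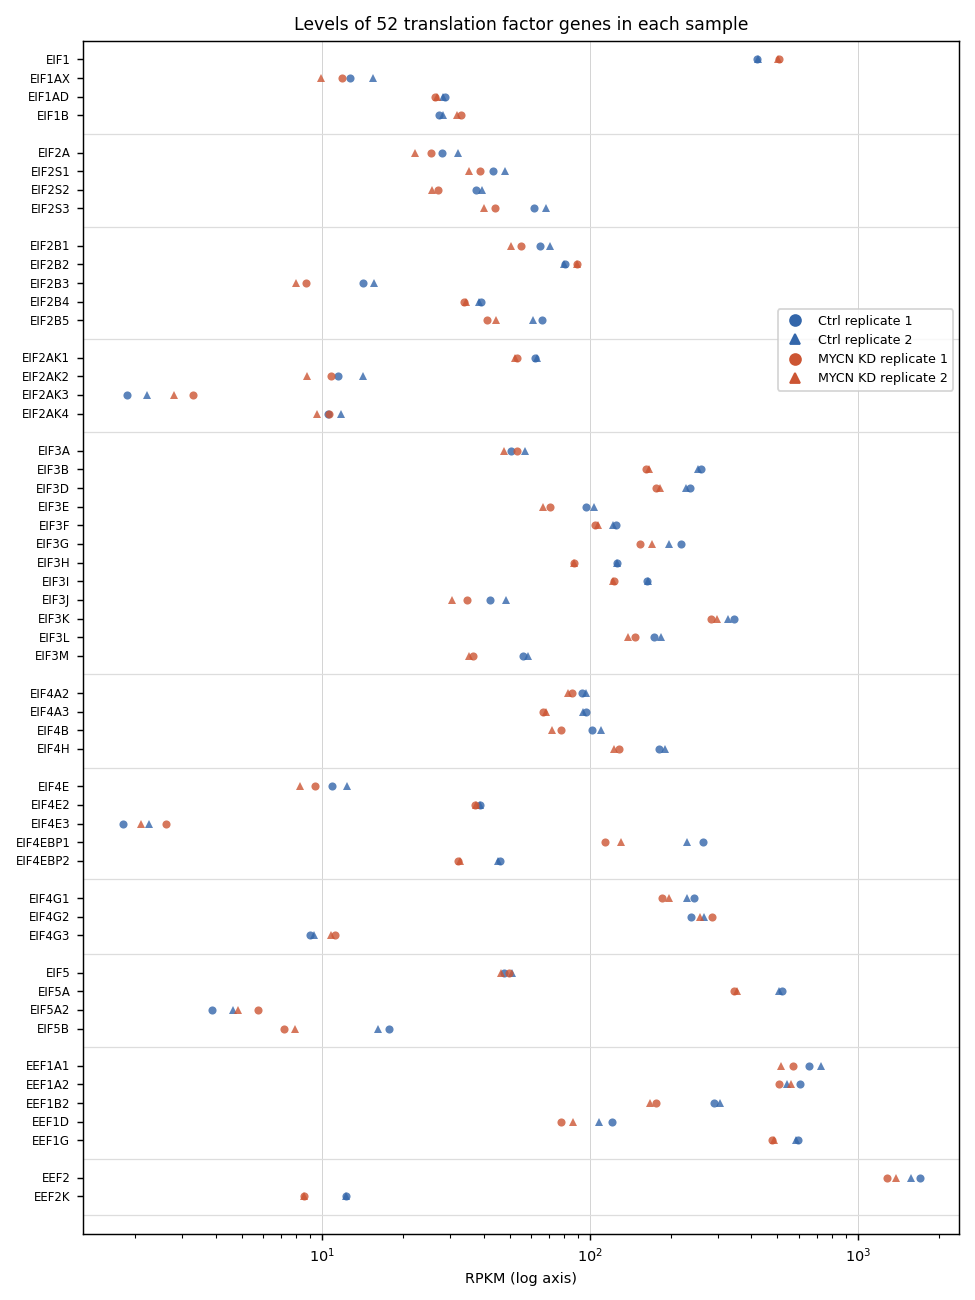
RPKM of the 52 tested translation factor genes (log axis) in each of the 4 samples, grouped by factor, with Ctrl in blue, MYCN KD in orange, circles for replicate 1 and triangles for replicate 2. For 40 genes both orange points lie to the left of both blue points, and for 6 they lie to the right.

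The promoters of the members were examined for the E-box CACGTG, since this is the sequence that MYC proteins bind. Promoter sequences from 250 bases before to 50 bases after the start were taken from RefSeq (build GRCh38.p14), which held 44 of the 54 members. The other 10 were EEF1A2, EEF1D, EIF2AK1, EIF2S2, EIF3A, EIF3E, EIF3G, EIF3H, EIF3L and EIF4EBP1. The motif reads the same on both strands. A gene with several starts in the table was counted once, if any of them held the motif. It was found for 12 of the 44 members (27.3%), for 13.2% of the 8489 tested genes in the table and for 8.77% of all its genes. The 12 were EIF1B, EIF2AK2, EIF2B3, EIF3F, EIF3K, EIF4A3, EIF4B, EIF4E, EIF4G1, EIF4H, EIF5A2 and EEF2K. Of these, 8 were lower (66.7%), EIF1B was higher, and EIF2AK2, EIF4E and EIF5A2 did not pass the threshold. Of the 30 tested members without the motif, 17 were lower (56.7%). Among these 8489 tested genes, 32.5% of those with the motif and 21.4% of those without it were lower. The promoters of EIF4E, EIF4G1 and EIF5A2 held it at 2 places. The 250 bases before the start are shown for these and for 2 promoters with a single copy, EIF4B, where it is closest to the start (22 bases before it), and EIF2B3, the member with the motif that fell most. Capitals mark CACGTG.
EIF4E (chr4:98929134-98929383, - strand): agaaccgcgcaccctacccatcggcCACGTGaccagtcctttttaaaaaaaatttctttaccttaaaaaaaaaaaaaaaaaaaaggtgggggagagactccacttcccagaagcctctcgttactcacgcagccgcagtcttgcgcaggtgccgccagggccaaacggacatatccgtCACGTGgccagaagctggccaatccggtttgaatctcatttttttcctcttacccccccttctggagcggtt
EIF4G1 (chr3:184314356-184314605, + strand): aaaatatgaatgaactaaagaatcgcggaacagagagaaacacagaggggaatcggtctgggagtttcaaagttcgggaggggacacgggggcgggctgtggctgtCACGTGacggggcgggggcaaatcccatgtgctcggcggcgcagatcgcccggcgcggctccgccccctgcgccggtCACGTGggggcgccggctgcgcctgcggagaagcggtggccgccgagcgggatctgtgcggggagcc
EIF5A2 (chr3:170908638-170908887, - strand): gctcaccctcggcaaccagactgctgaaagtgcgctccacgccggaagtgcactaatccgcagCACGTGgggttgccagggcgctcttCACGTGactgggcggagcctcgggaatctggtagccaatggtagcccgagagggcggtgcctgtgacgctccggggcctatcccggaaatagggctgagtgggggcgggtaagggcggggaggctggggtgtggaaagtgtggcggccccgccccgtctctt
EIF4B (chr12:53006206-53006455, + strand): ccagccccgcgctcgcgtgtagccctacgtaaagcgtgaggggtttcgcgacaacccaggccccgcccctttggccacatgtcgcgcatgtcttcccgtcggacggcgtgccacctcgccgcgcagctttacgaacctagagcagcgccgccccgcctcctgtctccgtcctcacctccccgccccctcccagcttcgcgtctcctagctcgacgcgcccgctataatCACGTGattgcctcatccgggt
EIF2B3 (chr1:44986596-44986845, - strand): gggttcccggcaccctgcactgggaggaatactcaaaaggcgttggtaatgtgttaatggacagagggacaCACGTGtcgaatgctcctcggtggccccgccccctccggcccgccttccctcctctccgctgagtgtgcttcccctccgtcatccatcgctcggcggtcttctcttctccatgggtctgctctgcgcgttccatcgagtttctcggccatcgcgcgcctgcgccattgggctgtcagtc
The motif of EIF4E stood 225 and 72 bases before the start, that of EIF4G1 144 and 67, that of EIF5A2 187 and 162, and that of EIF2B3 179. These 5 genes did not move alike, since EIF4G1, EIF4B and EIF2B3 were lower, EIF4E had a log2 difference of -0.36 past no threshold, and EIF5A2 one of 0.26. Binding of MYCN was not measured in these files, and a match is a description of the letters only.

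Many mRNAs of the translation machinery begin with a C followed by a run of pyrimidines, the terminal oligopyrimidine tract through which the mTORC1 pathway controls their translation. A C followed by at least 4 bases of C or T at the annotated start, read on the gene's own strand, was found for 11 of the 44 members (25%). It was found for 7.55% of the same 8489 tested genes and 5.14% of all genes in the table. Of the 11, 10 were lower and none was higher, and the remaining one, EIF2A, had a log2 difference of -0.32 (adjusted p = 0.0833). Of the 31 tested members without the tract, 15 were lower and 5 were higher. Some of these calls did not hold under every alternative given at the end. With the tract these were EEF1A1, EEF2, EIF3F, EIF3K and EIF4A2. Without it they were EEF1G, EIF2B1, EIF2B4, EIF3J and EIF4G1 among the lower, and all 5 of the higher. The medians of the tested members with and without the tract were close, at -0.34 and -0.31. Among these 8489 tested genes, 30.7% of those with the tract and 22.2% of those without it were lower. The tracts are shown because they differ in length between these members, from 5 bases at EIF4B to 15 or more at EEF1B2. Each line holds 5 bases before and 15 bases from the start, with the tract in capitals.
EEF1A1 (chr6:73521018-73521037, - strand): acgttCTTTTTCgcaacggg
EEF1B2 (chr2:206159890-206159909, + strand): cgggtCCTTTTTCCTCTCTT
EEF2 (chr19:3985449-3985468, - strand): gcgttCTCTTCCgccgtcgt
EIF2A (chr3:150546782-150546801, + strand): ggtttCTCTTTCCgggacaa
EIF2S3 (chrX:24054951-24054970, + strand): ccttcCTCTTTTggcaacat
EIF3D (chr22:36529152-36529171, - strand): gtttcCTCTTTTCCTggttt
EIF3F (chr11:7987332-7987351, + strand): gcctcCTTCTTTCTCgacaa
EIF3K (chr19:38619183-38619202, + strand): accacCTCTTCCTgttcccg
EIF3M (chr11:32583826-32583845, + strand): gttccCTTTTCCggtcggcg
EIF4A2 (chr3:186783572-186783591, + strand): gctgtCTTTTCagtcgggcg
EIF4B (chr12:53006451-53006470, + strand): cgggtCTTTTgcgttctctt
The genes in this list with both features were EIF3F, EIF3K and EIF4B. The annotated start is not a measured one, and translation itself was not measured.

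The ternary complex and its exchange factor were lower in part. eIF2 is a complex of 3 subunits, of which EIF2S1 codes for the phosphorylated α subunit, EIF2S2 for β and EIF2S3 for the GTP-binding γ. EIF2S3 had 61.7 and 68.1 RPKM in Ctrl against 44.2 and 40.2 RPKM in MYCN KD. EIF2S2 had 37.3 and 39.6 RPKM in Ctrl against 27.1 and 25.6 RPKM in MYCN KD. Both were separated between the groups and fell (log2 difference -0.61, SE 0.079, adjusted p = 0.0117 for EIF2S3, and log2 difference -0.53, SE 0.053, adjusted p = 0.00768 for EIF2S2). EIF2S1 had 43.3 and 47.9 RPKM in Ctrl against 38.7 and 35.2 RPKM in MYCN KD, with the MYCN KD samples below both Ctrl samples, but its difference of -0.29 did not pass the threshold (adjusted p = 0.0559). The ratio of EIF2S3 to EIF2S1 in RPKM was 1.43 and 1.42 in Ctrl against 1.14 in each MYCN KD sample. EIF2A, a separate protein able to bind the initiator tRNA, had 27.9 and 32.0 RPKM in Ctrl against 25.4 and 22.2 RPKM in MYCN KD and did not pass either. Without replicate 1 of either group EIF2S1 and EIF2A did pass, with adjusted p-values down to 0.0095 and 0.00452.

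eIF2B exchanges GDP for GTP on eIF2 and is built from 5 different subunits. Of these, 4 fell and 1 rose. EIF2B3, the γ subunit gene at chromosome 1, 45316194 to 45452394, minus strand of GRCh37, changed most within the complex, with 14.2 and 15.6 RPKM in Ctrl against 8.70 and 7.96 RPKM in MYCN KD. Its mean went from 14.9 ± 0.986 to 8.33 ± 0.522 RPKM (SD, n = 2), which is 55.8% of control (log2 difference -0.77, SE 0.074, adjusted p = 0.00705). EIF2B5, the catalytic ε subunit, had 66.0 and 61.4 RPKM in Ctrl against 41.2 and 44.3 RPKM in MYCN KD and was also separated between groups (log2 difference -0.56, SE 0.063, adjusted p = 0.00897). EIF2B1 (α) and EIF2B4 (δ) fell by less, with log2 differences of -0.35 (adjusted p = 0.0278) and -0.18 (adjusted p = 0.0276), and after rescaling to the same total EIF2B1 no longer passed (adjusted p = 0.0643). EIF2B2, the β subunit, was higher in both MYCN KD samples, with 80.4 and 80.0 RPKM in Ctrl against 89.1 and 89.6 RPKM in MYCN KD (log2 difference 0.15, SE 0.03, adjusted p = 0.0274). The calls of EIF2B2 and EIF2B4 were small changes and did not hold when any 1 of the 4 samples was left out, with adjusted p-values from 0.282 to 0.326 and from 0.201 to 0.312.

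The 4 kinases that phosphorylate eIF2α under stress did not move in 1 direction. EIF2AK3 (PERK, the sensor of endoplasmic reticulum stress) was scarce but higher, with 1.87 and 2.22 RPKM in Ctrl against 3.30 and 2.78 RPKM in MYCN KD (log2 difference 0.41, SE 0.10, adjusted p = 0.0448). It had 296 to 445 reads per sample. The call did not hold without Ctrl replicate 1 or without MYCN KD replicate 1 (adjusted p 0.0541 and 0.06), nor without the level filter (adjusted p = 0.0736). EIF2AK1 (HRI, the heme-regulated kinase) had 62.3 and 63.4 RPKM in Ctrl against 53.1 and 52.2 RPKM in MYCN KD and was lower (log2 difference -0.25, SE 0.034, adjusted p = 0.0125), though in no fit that left out 1 sample (adjusted p from 0.0635 to 0.109). EIF2AK2 (PKR, activated by double-stranded RNA) had 11.4 and 14.2 RPKM in Ctrl against 10.8 and 8.78 RPKM in MYCN KD, below both Ctrl samples but not past the threshold, with a difference of -0.36 (adjusted p = 0.142). It did pass without replicate 1 of either group, with an adjusted p down to 0.00189. EIF2AK4 (GCN2, the sensor of uncharged tRNA) overlapped between the groups, with a difference of -0.13 (adjusted p = 0.281). EIF2AK2 is an interferon-induced gene, and of 11 other interferon response genes tested, 5 were higher, among them IRF9 at 2.60 and 3.21 RPKM in Ctrl against 11.4 and 9.32 RPKM in MYCN KD (log2 difference 1.54, SE 0.14, adjusted p = 0.00633), and ADAR was lower. The median log2 difference of the 11 was 0.25, and over all tested genes 25.3% were higher and 22.8% were lower.

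Genes of the eIF2 phosphatase and of the stress response downstream of eIF2α were mixed. Of 13 tested, 2 were lower (15.4%), 3 were higher (23.1%) and 8 did not pass, with a median log2 difference of 0.02. Of all tested genes, 22.8% were lower and 25.3% were higher. ATF4, the transcription factor translated when eIF2α is phosphorylated, had 255 and 254 RPKM in Ctrl against 189 and 190.0 RPKM in MYCN KD and fell (log2 difference -0.42, SE 0.029, adjusted p = 0.0046). ASNS, asparagine synthetase and an ATF4 target, fell, with a difference of -0.70 (adjusted p = 0.00359). ATF3, a stress-induced transcription factor, rose from 5.97 ± 0.0411 to 12.2 ± 0.0898 RPKM (SD, n = 2) (log2 difference 0.93, SE 0.038, adjusted p = 0.00359). PPP1R15A (GADD34, the inducible regulatory subunit of the eIF2α phosphatase) had 13.1 and 12.2 RPKM in Ctrl against 19.4 and 20.7 RPKM in MYCN KD and rose too (log2 difference 0.62, SE 0.061, adjusted p = 0.00719), as did TRIB3, an ATF4 target, by 0.24 (adjusted p = 0.0284). The ATF4 targets of this list thus did not share 1 direction, and the phosphorylation of eIF2α was not measured.

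eIF3, the largest initiation factor, was lower in nearly every subunit measured. Of 12 tested subunit genes 11 fell and the remaining one, EIF3A, did not pass the threshold. The shares over all tested genes were 22.8% lower and 25.3% higher. The median log2 difference of the 12 was -0.39, and the summed level of the subunits was 1891 and 1865 RPKM in Ctrl against 1429 and 1451 RPKM in MYCN KD. EIF3B, a core scaffold subunit at chromosome 7, 2393721 to 2420380, plus strand, had 259 and 252 RPKM in Ctrl against 161 and 166 RPKM in MYCN KD. Its level was 64.0% of control and the groups lay far apart (log2 difference -0.64, SE 0.035, adjusted p = 0.00383). EIF3M had 56.2 and 58.5 RPKM in Ctrl against 36.4 and 35.1 RPKM in MYCN KD and was separated as well (log2 difference -0.67, SE 0.043, adjusted p = 0.0043). EIF3E and EIF3H, subunits of the same octamer as EIF3M, had log2 differences of -0.53 (adjusted p = 0.00829) and -0.52 (adjusted p = 0.00394), EIF3H with 126 and 126 RPKM in Ctrl against 87.2 and 87.3 RPKM in MYCN KD.

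The other called eIF3 subunits fell by less. EIF3I and EIF3G, which belong to the module around EIF3B, had log2 differences of -0.42 (adjusted p = 0.00476) and -0.36 (adjusted p = 0.0411), and EIF3D, the subunit that can bind the cap of some mRNAs, one of -0.36 (adjusted p = 0.00897). EIF3J, a loosely bound subunit, had 42.4 and 48.5 RPKM in Ctrl against 34.7 and 30.5 RPKM in MYCN KD (log2 difference -0.47, SE 0.10, adjusted p = 0.0353), and EIF3L a difference of -0.32 (adjusted p = 0.0177). The call of EIF3L was lost after quantile normalization (adjusted p = 0.0659), and that of EIF3G without the level filter (adjusted p = 0.0652). The call of EIF3J was lost without the level filter (adjusted p = 0.0565) and after rescaling to the same total (adjusted p = 0.0664). EIF3K, the most abundant subunit transcript, had 344 and 327 RPKM in Ctrl against 282 and 297 RPKM in MYCN KD. EIF3K and EIF3F changed least among those called, with -0.21 (adjusted p = 0.0385) and -0.22 (adjusted p = 0.0209), and neither call held when any 1 of the 4 samples was left out, with adjusted p-values from 0.0616 to 0.218 and from 0.0721 to 0.168. EIF3A, the largest subunit and an organiser of the octamer, overlapped between the groups at 50.5 and 57.0 RPKM in Ctrl against 53.4 and 47.6 RPKM in MYCN KD, with a difference of -0.09 (adjusted p = 0.479). A separate test of EIF3A against the other subunits was not made.

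**Figure D3:**
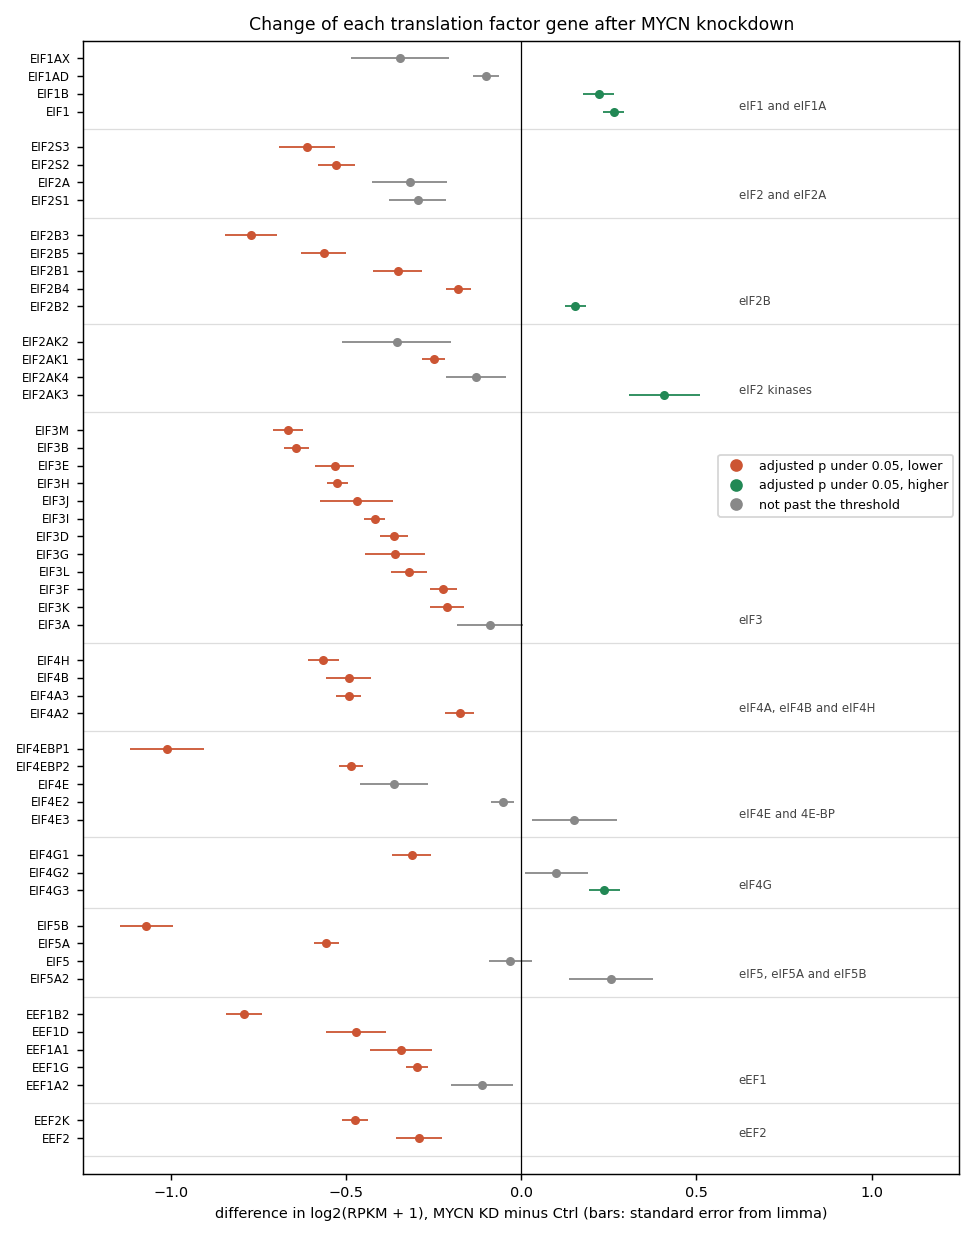
Difference in log2(RPKM + 1), MYCN KD minus Ctrl, for each of the 52 tested translation factor genes by factor group, with bars of 1 standard error from limma and colours for the call at an adjusted p of 0.05. The 11 called eIF3 subunits lie between -0.67 and -0.21, and the 5 higher genes, EIF1, EIF1B, EIF2B2, EIF2AK3 and EIF4G3, lie between 0.15 and 0.41.

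The genes for mRNA recruitment changed unequally. The cap-binding gene EIF4E, at chromosome 4, 99800427 to 99850284, minus strand, had 10.8 and 12.3 RPKM in Ctrl against 9.34 and 8.25 RPKM in MYCN KD. Both knockdown samples lay under the controls, but the difference did not pass the threshold (log2 difference -0.36, SE 0.10, adjusted p = 0.0528), though it did under 5 of 13 alternatives, namely quantile normalization (adjusted p = 0.0201), the stricter level filter of 5 RPKM (adjusted p = 0.0485), the crossed replicate block and the fits without replicate 1 of either group (adjusted p = 0.00647 and 0.00936). EIF4E2, a cap-binding homologue linked to repression of mRNAs, was near its control level, with 38.8 and 38.7 RPKM in Ctrl against 37.3 and 37.4 RPKM in MYCN KD and a difference of -0.05 (adjusted p = 0.247) that changed sign under both other scalings. EIF4E3 was scarce and overlapped between the groups, with a difference of 0.15 (adjusted p = 0.358). The share of EIF4E2 in the summed RPKM of EIF4E2 and EIF4E was 78.2% and 75.8% in Ctrl against 80.0% and 81.9% in MYCN KD (exact permutation p = 0.3333).

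The binding proteins that hold eIF4E away from eIF4G passed the threshold as lower. EIF4EBP1 had 263 and 230.3 RPKM in Ctrl against 114 and 129.8 RPKM in MYCN KD. Its mean fell from 247 ± 23.2 to 122 ± 11.3 RPKM (SD, n = 2), to 49.4% of control (log2 difference -1.01, SE 0.11, adjusted p = 0.008). EIF4EBP2 had 46.1 and 45.4 RPKM in Ctrl against 32.1 and 32.7 RPKM in MYCN KD and fell as well (log2 difference -0.49, SE 0.034, adjusted p = 0.00476). The ratio of EIF4EBP1 to EIF4E in RPKM was 24.3 and 18.7 in Ctrl against 12.2 and 15.7 in MYCN KD, without overlap. The share of EIF4EBP2 in the summed RPKM of both genes was 14.9% and 16.5% in Ctrl against 22.0% and 20.1% in MYCN KD, for which the exact two-sided permutation test gave p = 0.3333, the smallest value that 2 against 2 samples allow. Over the 6 pairs of related genes compared in this way, the Benjamini-Hochberg adjusted p of the exact test was 0.5 for 4 pairs and 0.6667 for the others. A further gene of this family, EIF4EBP3, had 2.03 and 2.35 RPKM in Ctrl against 0.448 and 0.374 RPKM in MYCN KD, which rested on 48, 52, 9 and 8 reads (log2 difference -1.18, SE 0.07, adjusted p = 0.00414). The phosphorylation that controls these proteins was not measured.

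Among the helicases and their partners every measured member fell. EIF4H, a cofactor of eIF4A, had 181 and 189.7 RPKM in Ctrl against 128 and 122 RPKM in MYCN KD (log2 difference -0.56, SE 0.045, adjusted p = 0.00553). EIF4B, the other cofactor, had 102 and 110.2 RPKM in Ctrl against 77.8 and 72.3 RPKM in MYCN KD (log2 difference -0.49, SE 0.065, adjusted p = 0.0122). EIF4A3, a helicase of the exon junction complex and not of the cap complex, had 96.5 and 94.1 RPKM in Ctrl against 66.6 and 68.3 RPKM in MYCN KD (log2 difference -0.49, SE 0.036, adjusted p = 0.00485). In all 3 genes both MYCN KD values lay below both Ctrl values. EIF4A2, the paralog of EIF4A1, changed less, with 93.4 and 96.8 RPKM in Ctrl against 85.5 and 82.6 RPKM in MYCN KD (log2 difference -0.18, SE 0.04, adjusted p = 0.0376), and its call was lost when any 1 sample was left out (adjusted p from 0.154 to 0.317) and under both other scalings.

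The eIF4G scaffold genes went separate ways. EIF4G1, the main scaffold, had 244 and 229.7 RPKM in Ctrl against 185 and 196 RPKM in MYCN KD and was lower (log2 difference -0.31, SE 0.055, adjusted p = 0.0213). EIF4G3 was much scarcer in RPKM and higher, with 9.01 and 9.33 RPKM in Ctrl against 11.2 and 10.8 RPKM in MYCN KD (log2 difference 0.24, SE 0.044, adjusted p = 0.0243), a call that did not hold when any 1 sample was left out (adjusted p from 0.132 to 0.253). The share of EIF4G3 in the summed RPKM of both was 3.56% and 3.91% in Ctrl against 5.70% and 5.22% in MYCN KD, again with p = 0.3333 in the exact permutation test. EIF4G2 (DAP5), which lacks the eIF4E-binding site and serves initiation without the cap-binding factor, overlapped between the groups at 239 and 267 RPKM in Ctrl against 286 and 256 RPKM in MYCN KD, with a difference of 0.10 (adjusted p = 0.405).

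The genes of start codon selection included EIF1, the higher member with the smallest adjusted p. EIF1, which keeps the scanning complex from stopping at wrong codons, had 418 and 422 RPKM in Ctrl against 507 and 502 RPKM in MYCN KD. Its mean rose from 420.2 ± 2.82 to 505 ± 3.18 RPKM (SD, n = 2), to 120.1% of control (log2 difference 0.26, SE 0.029, adjusted p = 0.00894), and it was the only member with a mean of at least 100 RPKM that was higher. Without MYCN KD replicate 1 its adjusted p was 0.054. EIF1B, its paralog, had 27.1 and 28.2 RPKM in Ctrl against 33.1 and 31.8 RPKM in MYCN KD and was also higher (log2 difference 0.22, SE 0.044, adjusted p = 0.0273), though in no fit that left out 1 sample (adjusted p from 0.0976 to 0.236). The share of EIF1B in the summed RPKM of both was 6.10% and 6.27% in Ctrl against 6.12% and 5.96% in MYCN KD, so that the values overlapped. EIF1AX, the gene of eIF1A, had 12.7 and 15.4 RPKM in Ctrl against 11.9 and 9.84 RPKM in MYCN KD, a difference of -0.34 (adjusted p = 0.125) that passed without replicate 1 of either group (adjusted p down to 0.00295). EIF1AD, a related gene, had a difference of -0.10 (adjusted p = 0.0986).

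EIF5B, which shares exon bases with REV1 on the other strand, had the largest log2 difference of the tested members. The gene, which codes for the GTPase that joins the ribosomal subunits and lies at chromosome 2, 99953834 to 100017789, plus strand, had 17.7 and 16.1 RPKM in Ctrl against 7.19 and 7.88 RPKM in MYCN KD. Its mean fell from 16.9 ± 1.11 to 7.54 ± 0.493 RPKM (SD, n = 2), to 44.5% of control (log2 difference -1.07, SE 0.075, adjusted p = 0.00468), and the log2 difference stayed between -1.17 and -1.01 under every alternative run. EIF5, the GTPase-activating protein of eIF2, overlapped between the groups at 47.5 and 51.0 RPKM in Ctrl against 49.8 and 46.5 RPKM in MYCN KD, with a difference of -0.03 (adjusted p = 0.701) that changed sign under both other scalings. EIF5A, the factor that carries hypusine and helps the ribosome past difficult peptide bonds, had 519 and 505 RPKM in Ctrl against 343 and 353 RPKM in MYCN KD and fell (log2 difference -0.56, SE 0.036, adjusted p = 0.0043). EIF5A2, its paralog, was scarce and lay above both Ctrl values in both MYCN KD samples, with 3.88 and 4.65 RPKM in Ctrl against 5.76 and 4.82 RPKM in MYCN KD, but did not pass the threshold (log2 difference 0.26, SE 0.12, adjusted p = 0.165). It did without replicate 2 of either group (adjusted p down to 0.0364). The share of EIF5A2 in the summed RPKM of both was 0.741% and 0.912% in Ctrl against 1.65% and 1.35% in MYCN KD (exact permutation p = 0.3333). EIF5AL1, a near copy of EIF5A with which it may share reads, had a difference of -0.36 (adjusted p = 0.0336).

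The elongation factor genes and the eEF2 kinase passed the threshold as lower, EEF1A2 excepted. EEF2, the translocase and the most abundant member, had 1697 and 1573 RPKM in Ctrl against 1286 and 1386 RPKM in MYCN KD (log2 difference -0.29, SE 0.065, adjusted p = 0.0354). Its groups were separated, but the call did not hold without Ctrl replicate 1 (adjusted p = 0.0769), without MYCN KD replicate 1 (adjusted p = 0.0775) or without the level filter (adjusted p = 0.0662), and not with the replicate block (adjusted p = 0.0663). EEF2K, the kinase that inactivates eEF2, had 12.3 and 12.3 RPKM in Ctrl against 8.55 and 8.55 RPKM in MYCN KD and was lower too (log2 difference -0.47, SE 0.037, adjusted p = 0.00534). The ratio of EEF2 to EEF2K in RPKM was 139 and 128 in Ctrl against 150.3 and 162 in MYCN KD. The 5 genes of eEF1 summed to 2271 and 2276 RPKM in Ctrl against 1809.6 and 1819 RPKM in MYCN KD.

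EEF1A1, which codes for the factor that delivers aminoacyl-tRNA, had 653 and 729 RPKM in Ctrl against 573 and 516 RPKM in MYCN KD (log2 difference -0.34, SE 0.087, adjusted p = 0.0473). The call was lost under 4 of 13 alternatives, among them both other scalings, and many processed copies of this gene exist in the genome, so that its reads may be split. EEF1A2, the form of muscle and neurons, had 609 and 545 RPKM in Ctrl against 505 and 563 RPKM in MYCN KD and overlapped, with a difference of -0.11 (adjusted p = 0.355). Its share of the summed RPKM of both genes was 48.2% and 42.8% in Ctrl against 46.8% and 52.1% in MYCN KD (exact permutation p = 0.6667). EEF1B2, EEF1D and EEF1G code for the exchange factor that recharges eEF1A with GTP. EEF1B2, a subunit with exchange activity at chromosome 2, 207024309 to 207027652, plus strand, had 289 and 306 RPKM in Ctrl against 176 and 167 RPKM in MYCN KD and fell to 57.7% of control (log2 difference -0.79, SE 0.051, adjusted p = 0.00429). EEF1D had 120.2 and 108 RPKM in Ctrl against 77.7 and 86.3 RPKM in MYCN KD (log2 difference -0.47, SE 0.086, adjusted p = 0.0232), and EEF1G, the γ subunit, had 599 and 587 RPKM in Ctrl against 478 and 487 RPKM in MYCN KD (log2 difference -0.30, SE 0.032, adjusted p = 0.00843). All 3 were separated between the groups, but not in proportion, since the ratio of EEF1G to EEF1B2 in RPKM was 2.07 and 1.92 in Ctrl against 2.71 and 2.92 in MYCN KD. EEF1E1 (AIMP3), a protein of the aminoacyl-tRNA synthetase complex named after this family, had 9.76 and 10.6 RPKM in Ctrl against 4.84 and 4.49 RPKM in MYCN KD (log2 difference -0.98, SE 0.065, adjusted p = 0.00441).

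**Figure D4:**
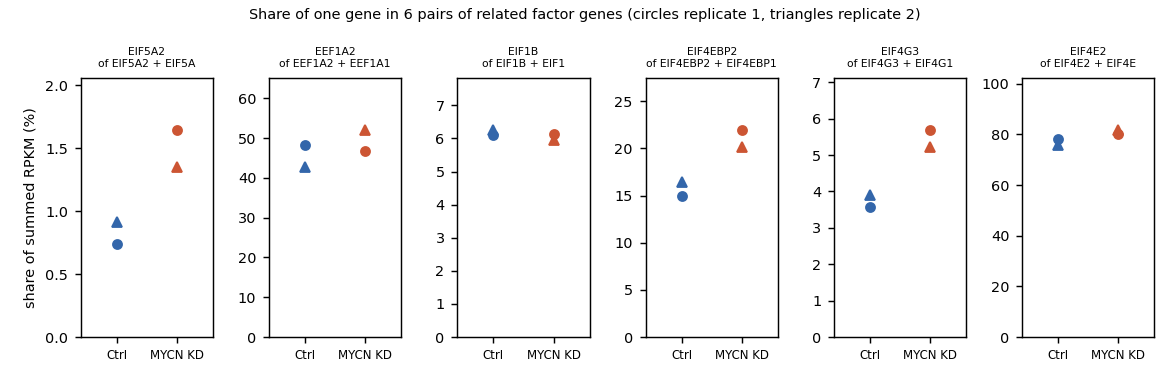
Share of the first-named gene in the summed RPKM of 6 pairs of related translation factor genes (vertical axis, percent, each panel from 0) in each sample, by condition. The shares of EIF5A2, EIF4EBP2, EIF4G3 and EIF4E2 are higher in both MYCN KD samples, and those of EEF1A2 and EIF1B overlap; 4 samples cannot give an exact permutation p under 0.3333.

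Genes for the enzymes that modify the factors were largely lower. Of 10 tested genes for hypusine, diphthamide and methylation, 6 were lower (60%) and none was higher, with a median of -0.57. Over all tested genes, 22.8% were lower and 25.3% were higher. DPH2 and DPH1, which start the synthesis of diphthamide on eEF2, had log2 differences of -0.995 (adjusted p = 0.00752) and -0.87 (adjusted p = 0.0198), DPH2 with 35.4 and 31.1 RPKM in Ctrl against 15.2 and 17.2 RPKM in MYCN KD. EEF2KMT, the methyltransferase of eEF2, had 7.16 and 6.91 RPKM in Ctrl against 4.08 and 4.23 RPKM in MYCN KD (log2 difference -0.64, SE 0.045, adjusted p = 0.00465). The hypusine enzymes of eIF5A, DHPS and DOHH, had differences of 0.07 (adjusted p = 0.418) and -0.40 (adjusted p = 0.0709) and did not pass.

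Over 78 further genes of the pathway, 72 were tested, 25 were lower (34.7%), 5 were higher (6.94%) and 42 did not pass, beside the 22.8% and 25.3% of all tested genes, with a median log2 difference of -0.15. Of 12 genes for termination, recycling and reinitiation, 4 were lower, among them DENR, a reinitiation factor, with 28.8 and 32.7 RPKM in Ctrl against 17.9 and 15.9 RPKM in MYCN KD (log2 difference -0.83, SE 0.10, adjusted p = 0.00964), and ABCF2 with a difference of -0.66 (adjusted p = 0.00371). PELO, which rescues stalled ribosomes, was higher (log2 difference 0.25, SE 0.035, adjusted p = 0.0129). Of 7 tested poly(A)-binding and initiation partners 3 were lower and none was higher, led by PABPC1, the poly(A)-binding protein that contacts eIF4G, with 366 and 390.1 RPKM in Ctrl against 225 and 212 RPKM in MYCN KD (log2 difference -0.79, SE 0.055, adjusted p = 0.00467). The 17 tested genes of mTORC1 and eIF4E control mostly did not pass, with 4 lower, 1 higher and a median of -0.05. PDCD4, an inhibitor of eIF4A, fell, with a difference of -0.64 (adjusted p = 0.00414), MKNK2, a kinase of eIF4E, fell with -0.50 (adjusted p = 0.00782), and DEPTOR, an inhibitor of mTOR, rose with 0.51 (adjusted p = 0.0343). Of 9 mitochondrial translation factors 3 were lower, with -0.60 (adjusted p = 0.00832) for MRRF, -0.45 (adjusted p = 0.012) for TUFM and -0.43 (adjusted p = 0.00567) for TSFM, and none was higher.

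Small nucleolar RNAs that lie within members were also examined. Of 9 tested, 2 were lower (22.2%) and none was higher, beside 22.8% and 25.3% of all tested genes. The lower ones were SNORD37 within EEF2 (log2 difference -1.04, SE 0.18, adjusted p = 0.0217) and SNORA81 within EIF4A2 (log2 difference -0.25, SE 0.045, adjusted p = 0.0218). Each shares exon bases on the same strand with the member around it, and reads there could be counted for either gene or for neither. SNORD37 rested on 11 reads in Ctrl replicate 1 and 5 in MYCN KD replicate 1, and SNORA81 on 9 and 6. These values are of low precision.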

How the data were processed

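Gene expression was measured by RNA-seq in BE(2)C cells, in 2 Ctrl and 2 MYCN KD samples grouped by their titles. Per the study's methods and labels, reads were aligned to hg19 by HISAT2 2.1.0 and assigned to RefSeq genes by featureCounts. The authors then passed the counts through DESeq2 and RUVSeq, which takes out unwanted variation. The deposited unit is RPKM, which the authors derived from the RUVSeq counts, with 1 file per sample. The number of factors removed is not given in the sources used here, and this step may have shaped the replicate spread. The read total of each sample was recovered from the smallest unit of the RPKM of small RNA genes, and with it and the RefSeq length 92.92% to 94.06% of these genes came within 0.01 of a whole read. For every one of the 19908 genes above 0 in at least 1 sample, a length could then be found that put all its values within 0.002 of whole reads, beyond rounding. The smallest such length was taken, so that a gene's reads are the lowest number its values allow. These reads had been adjusted before deposit, so that they are not the raw depth.

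Levels were transformed to log2(RPKM + 1), and 11411 genes with a mean of 1 RPKM or more were fitted with limma 3.58.1 under R 4.3.3 (functions lmFit and eBayes, the latter with trend), without a block and with 2 residual degrees of freedom. P-values were two-sided and adjusted by the Benjamini-Hochberg method over all tested genes, with a threshold of 0.05. The shares of related genes in a summed level were compared by exact permutation over the samples. The fit was also tested on simulated counts with unrelated replicates and few changed genes, whose changes were larger than those of most members. There it recovered most of the changed genes, but the share of false calls exceeded the threshold. The data differ, with mirrored replicates, many called genes and smaller changes, so this recovery cannot be carried over to the calls given here. Every member was named, and from each further list up to 3 genes with the largest changes past the threshold and any called against the direction of its list. The members and lists were chosen with earlier results of these data known. Genes of the further lists beyond that rule (TRIB3, DHPS and DOHH among them) and the promoters shown were chosen after their values were seen. Gene positions are from GENCODE 44 lifted to GRCh37, and promoter sequences are from RefSeq (GRCh38.p14). Tables and plots were made in Python 3.11.15 with pandas 2.3.3, numpy 2.4.6, scipy 1.17.1 and matplotlib 3.10.9.

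Alternatives were a pseudocount of 0.1, no filter, a mean RPKM of at least 5, rescaling to the same total, quantile normalization, eBayes without a trend, the replicate block and each sample left out in turn. After the data had been seen, a crossed replicate block and voom on the recovered reads were added.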

Additional observations from a re-analysis of the deposited data

How the results depend on the processing

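Of the 38 called members, 20 had their call under every one of the 13 alternatives, and all of these were lower. None of the 5 higher members did. The count of lower members, 33, ranged from 25 (replicate block) to 44 (crossed replicate block), and the count of higher members, 5, was 1 with the replicate block and 0 to 3 when 1 sample was left out (0 without MYCN KD replicate 1, 1 without Ctrl replicate 1). The median log2 difference of the members, -0.34, was -0.29 after rescaling to the same total, -0.26 after quantile normalization and -0.38 to -0.29 when 1 sample was left out. Of all tested genes, 1868 were higher at a mean RPKM of at least 5, beside 2890. Of the pathway genes, 3 were higher with the replicate block and 3 in each fit that left out 1 sample, beside 5. Differences close to 0 changed sign for EIF4E2 (0.0064 rescaled, 0.0077 quantile), EIF5 (0.029 rescaled, 0.030 quantile, -0.082 to 0.020 with 1 sample left out) and EEF1A2 (0.012 quantile). In fits without 1 sample, the lone sample of its group was assumed to vary like the other group. The cause of these changes was not tested.

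In these values, which were adjusted before deposit, replicates of the same number departed in opposite ways (correlation of the deviations -0.9845). Whether the replicate numbers paired the samples cannot be told from such values. With the replicate block 1851 tested genes were lower and 2077 higher. With the numbers crossed, a pairing chosen after seeing the data, 8 members were higher, 5262 tested genes were lower and 5910 higher, and 52 pathway genes were lower and 19 higher. The replicate block ended the calls of 12 members, EEF1G, EEF2, EIF2AK1, EIF2B4, EIF3F, EIF3K, EIF4A2 and EIF4G1 among the lower and EIF1, EIF1B, EIF2B2 and EIF4G3 among the higher. Among single settings, calls were lost without the level filter for EEF1A1, EEF2, EIF2AK3, EIF3G, EIF3J, EIF3K and EIF4A2, with quantile normalization for EEF1A1, EIF2B4, EIF3K, EIF3L and EIF4A2, after rescaling for EEF1A1, EIF2B1, EIF3J and EIF4A2, and without a trend for EEF1A1. 2 samples per group limit every call, and a member with few reads, such as EIF2AK3 or EIF4E3, could be measured only roughly.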
